A study of Mus musculus with 16 samples.

Results

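The STAT family comprises the transcription factors that cytokine receptors use to reach the nucleus. The 6 genes described here, Stat2, Stat3, Stat4, Stat5a, Stat5b and Stat6, were taken by their symbols from the tables of normalized counts, and each of the 6 was found once among the 15080 genes of the tumor table and once among the 13344 genes of the stroma table. RNA was sequenced from bone marrow of C57BL/6J mice, either WT or IL6KO (carrying the Il-6 -/- allele, so that the host makes no IL-6), 8 days after tail vein injection of 500000 B-ALL cells. These mice received no drug (UTX in the labels) and were 6 to 8 weeks old. The leukemia was a single BCR-ABL+, Arf-/- line from male cells that also carried luciferase and an mCherry retrovirus, and mCherry sorted the marrow into tumor (mCherry+) and stroma (mCherry-, all remaining marrow cells after lysis of red cells). The leukemia cells were the same in both genotypes, so in tumor the genotype is that of the host, and there were 4 libraries in each of the 4 groups.

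A cytokine that binds its receptor brings JAK kinases together, which phosphorylate a STAT protein on tyrosine, and the STAT dimer then binds DNA. IL-6 acts through its receptor Il6ra and the shared subunit Il6st mainly on STAT3, type I interferon on a complex that holds STAT2 and IRF9, IL-12 on STAT4, IL-7, GM-CSF and erythropoietin on STAT5A and STAT5B, and IL-4 on STAT6. The BCR-ABL kinase is known to activate STAT5 without a cytokine. Transcript levels do not show phosphorylation, so the values below are the amounts of STAT mRNA, and in sorted bulk samples fewer cells of a type and less RNA per cell cannot be told apart.

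The 6 genes lie on 3 chromosomes of GRCm38 (mm10). Stat5b (chr11:100780731-100850724, minus strand), Stat5a (chr11:100859351-100885169, plus strand) and Stat3 (chr11:100885098-100939540, minus strand) are neighbours within 158810 bases. Stat5b and Stat5a stand head to head with 8626 bases between them, and the 3′ ends of Stat5a and Stat3 overlap by 72 bases on opposite strands, which the kit keeps apart but where the strand setting of the counting is not given in the sources used here. Stat6 (chr10:127642986-127660957) and Stat2 (chr10:128270559-128292849) are both on the plus strand of chromosome 10, and Stat4 (chr1:51987148-52107189, plus strand) is alone on chromosome 1. Their identifiers, in the order Stat2, Stat3, Stat4, Stat5a, Stat5b and Stat6, are ENSMUSG00000040033.16, ENSMUSG00000004040.16, ENSMUSG00000062939.11, ENSMUSG00000004043.14, ENSMUSG00000020919.11 and ENSMUSG00000002147.18.

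Stat5a and Stat5b are close copies, and they were the STAT genes whose tumor difference between the genotypes passed the test described below, near its threshold. The stretch their promoters share is shown for this reason. Which transcript starts are used in these cells was not measured, and a part of the stretch in the tumor levels was not tested. RefSeq (GRCm38.p6) gives 9 promoters for the 6 genes, each of 300 bases, and of the 33 pairs between different genes the longest identical stretch was 16 bases, in a Stat5a and a Stat5b promoter, against 11 bases in the next pairs. The last 100 bases before each of these transcript starts are printed 5′ to 3′ on the strand of the gene, from chr11:100860384-100860483 (plus strand) for Stat5a and chr11:100822571-100822670 (minus strand) for Stat5b, with the shared stretch in capitals, and both starts lie inside the gene spans given above.
Stat5a: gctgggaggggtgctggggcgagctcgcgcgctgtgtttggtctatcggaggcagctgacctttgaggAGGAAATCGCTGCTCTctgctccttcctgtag
Stat5b: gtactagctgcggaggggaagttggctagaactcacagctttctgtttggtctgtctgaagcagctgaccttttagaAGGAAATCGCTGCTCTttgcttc
The stretch runs from base -32 to -17 before the Stat5a start and from -23 to -8 before the Stat5b start, and among all 32851 RefSeq promoters of this length it was found on the gene's strand in these 2 only. The letters of the STAT motif TTCNNNGAA (N is any base, and the motif reads the same on both strands) were in none of the 9 STAT promoters and in 8.30% of all promoters. The longer form with 4 free bases in the middle, which STAT6 is known to bind as well, was in 1 STAT promoter, that of Stat2, and in 6.95% of all promoters.

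Depth was estimated from values that recur exactly within a library, by the step of which most are whole multiples, taken as the value of 1 read (97.7% to 99.4% of such values in tumor and 79.7% to 96.6% in stroma libraries). By this estimate the tumor libraries held 26.2 to 39.8 M reads in WT and 42.2 to 78.3 M in IL6KO, and the stroma libraries 11.9 to 41.3 M and 12.9 to 32.1 M. For all tumor libraries the estimate is above the depth stated in the study's methods, so that depths and reads per gene are approximate and the reason for the gap was not tested. Outside the 2 largest genes of each library, 21.0 to 32.3 M reads were left in WT tumor, 27.9 to 57.6 M in IL6KO tumor, 6.55 to 12.4 M in WT stroma and 1.89 to 8.20 M in IL6KO stroma. The sort was visible in the markers: scaled to equal totals outside the 2 largest genes (CPM), 12 B lineage genes summed to 4467 to 5037 CPM in tumor and 60.8 to 321 in stroma. Erythroid genes summed to 6176 to 41173 CPM in stroma and 367 to 490 CPM in tumor, and the T cell markers Cd3e, Cd3d and Cd3g were not analysed here. A gene varied more within the stroma groups than within the tumor groups, with a median residual SD (log2) of 0.86 against 0.21. Il6 itself was not analysed here, so the genotype labels have no check from the targeted gene.

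In tumor, the levels of the 6 genes are given as normalized counts per kb of the longest coding transcript, so that genes can be compared within a table. Stat6, the factor of IL-4, was the highest of the 6 in each of the 8 tumor libraries and Stat2, the interferon factor, the lowest. In WT tumor Stat6 had a level of 747 ± 122 per kb (SD, n = 4), followed by Stat4 (499 ± 21.9) and Stat3 (482 ± 116), whose libraries overlapped. Stat5b (325 ± 13.2) and Stat5a (310 ± 71.3) overlapped as well, and Stat2 (184 ± 22.5) lay below every library of the other 5 genes. In IL6KO tumor the order of levels per kb was Stat6 (718 ± 40.1), Stat3 (544 ± 58.4), Stat5a (463 ± 56.7), Stat4 (439 ± 52.2), Stat5b (385 ± 21.9) and Stat2 (188 ± 18.4), with overlap between each pair of neighbours from Stat3 to Stat5b. Stat5a stood at rank 5 of 6 in WT and at rank 3 in IL6KO tumor. The order depends on the transcript length used: with the mean length of the coding transcripts, Stat3 stood above Stat4 (729 and 528 per kb) and Stat5a above Stat5b (494 and 330 per kb) already in WT tumor.

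Stat5a, which with Stat5b carries the signals of growth factors to genes of survival and cell division, had normalized counts of 1480.0, 826, 1312 and 1196 in WT tumor libraries 1 to 4, and of 2038, 1807, 1505 and 1849.7 in IL6KO tumor libraries 1 to 4. Each IL6KO library was above each WT library. Stat5a rose from 1204 ± 277 to 1799.9 ± 221 (SD, n = 4), a log2 change (log2 fold change of IL6KO over WT, after adding 1 to each normalized count) of 0.60 (SE 0.17, 95% interval 0.23 to 0.98, limma adjusted p = 0.0343 over 14493 genes). Stat5b, its close copy on the same chromosome, had normalized counts of 1617, 1771, 1732 and 1662 in WT and of 1996, 2164, 1887 and 1990.2 in IL6KO tumor. The 8 libraries again fell into separate ranges, with a smaller spread than for Stat5a. Stat5b rose from 1695.5 ± 68.8 to 2009 ± 114 (SD, n = 4), a log2 change of 0.24 (SE 0.07, 95% interval 0.09 to 0.40, limma adjusted p = 0.0388).

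With an adjusted p under 0.05 as the threshold, here and below, 2 of the 6 STAT genes rose in tumor of IL6KO mice and none fell, where 10.6% of all genes tested rose and 9.16% fell, and the same 2 were those with every IL6KO library above every WT library, which held for 13.6% of all genes. Both calls were near the threshold. Both were lost once the dependence of a library on GC content and length of the transcripts was taken out, at log2 0.42 for Stat5a (limma adjusted p = 0.0950) and 0.21 for Stat5b (limma adjusted p = 0.0558), and Stat5a has the highest GC content of the 6 transcripts (55.8%). Without WT tumor 3, WT tumor 4, IL6KO tumor 1 or IL6KO tumor 4 neither gene passed, Stat5a also did not pass without IL6KO tumor 2, and Stat5b also did not pass without WT tumor 1 or 2. Over the 8 fits that leave out 1 library, the log2 fold change lay between 0.43 and 0.71 for Stat5a (limma adjusted p 0.0227 to 0.0934) and between 0.21 and 0.27 for Stat5b (limma adjusted p 0.0443 to 0.0888).

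Neutrophil markers moved with the same comparison. In tumor 11 of 14 neutrophil genes rose in IL6KO mice and none fell, and their summed normalized counts were 5134, 5293, 4937 and 5677 in WT and 18317, 19131, 7911 and 17039.7 in IL6KO tumor libraries 1 to 4, with none of the 14 genes at 0 in any library. IL6KO tumor 3, the lowest of its group in this sum, was also the lowest in Stat5a and in Stat5b, and without it the log2 fold changes were 0.69 and 0.27, both still called (limma adjusted p = 0.0353 and 0.0443). Monocyte and macrophage genes, 3 of 12 of which rose, summed to 2192 to 2560 in WT and 3181 to 6640 in IL6KO tumor. Of these 12 genes 5 had a positive and 7 a negative log2 fold change (median -0.11), so the higher sum did not hold across the list. The B lineage genes, of which 2 of 12 rose and 1 fell, summed to 151742 to 157184 in WT and 164180 to 175292 in IL6KO tumor. In CPM the B lineage sums overlapped (4655 to 4776 in WT and 4467 to 5037 in IL6KO tumor). The 5 T and NK cell genes in the table, none of which passed, summed to 1649 to 1971 in WT and 1206 to 1586 in IL6KO tumor, without overlap. Of these 5 genes 3 had a positive and 2 a negative log2 fold change (median 0.02). Nkg7 had 2.01 with every IL6KO library above every WT library, and Lck had -0.56 with every IL6KO library below. The part of these cell type markers, and of the higher estimated depth of IL6KO tumor, in the differences of Stat5a and Stat5b was not tested.

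**Figure D1:**
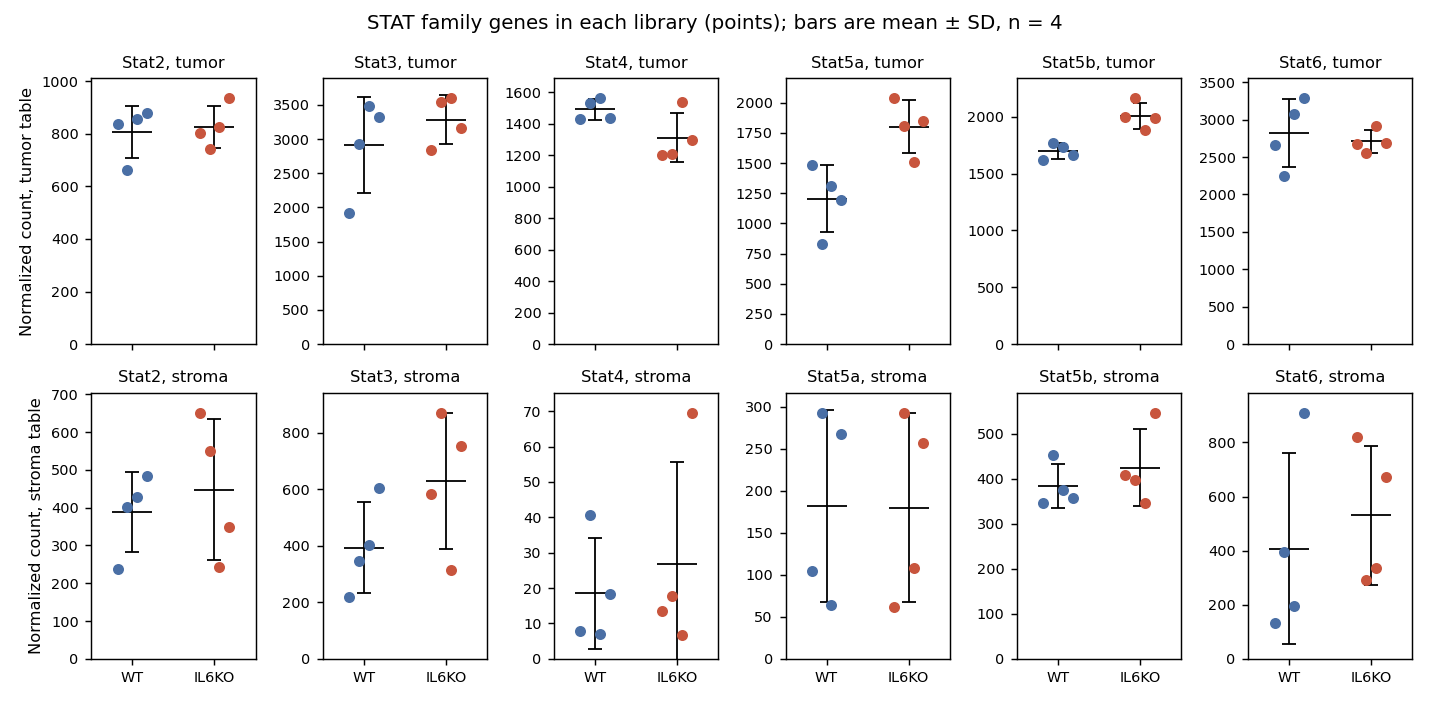
Normalized counts (vertical axes, from 0) of the 6 STAT genes in the 4 WT and 4 IL6KO libraries of tumor (upper row) and stroma (lower row), with 1 point per library and bars for mean ± SD, cut at 0. In tumor the IL6KO points of Stat5a (1505 to 2038) and Stat5b (1887 to 2164) sit above the WT points (826 to 1480.0 and 1617 to 1771), and in stroma the points of every gene overlap.

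The other 4 genes passed no test in tumor. Stat3, the main factor of IL-6, had normalized counts of 1919, 2928, 3477 and 3327 in WT and of 2846, 3541, 3599.6 and 3159 in IL6KO tumor. The ranges overlapped, and WT tumor 1 lay below the other 7 libraries (log2 fold change 0.20, SE 0.17, 95% interval -0.18 to 0.59, limma adjusted p = 0.433). Without WT tumor 1 the log2 fold change of Stat3 was 0.016. Stat4, the factor of IL-12, had 1431, 1528, 1561 and 1437 in WT and 1202, 1209, 1535 and 1293 in IL6KO tumor. Of its IL6KO libraries 3 were below every WT library and IL6KO tumor 3 was not, and the interval of its log2 change reached just past 0 (-0.19, SE 0.09, 95% interval -0.40 to 0.02, limma adjusted p = 0.172). Stat2 had 837, 663, 857 and 879 in WT and 802, 744, 825 and 936 in IL6KO tumor, a log2 change of 0.04 (95% interval -0.22 to 0.29, limma adjusted p = 0.858). Stat6 had 2665, 2254, 3079 and 3289 in WT and 2673, 2554, 2917 and 2693 in IL6KO tumor, with all IL6KO values inside the range of WT and a log2 change of -0.05 (95% interval -0.30 to 0.21, limma adjusted p = 0.812).

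**Figure D2:**
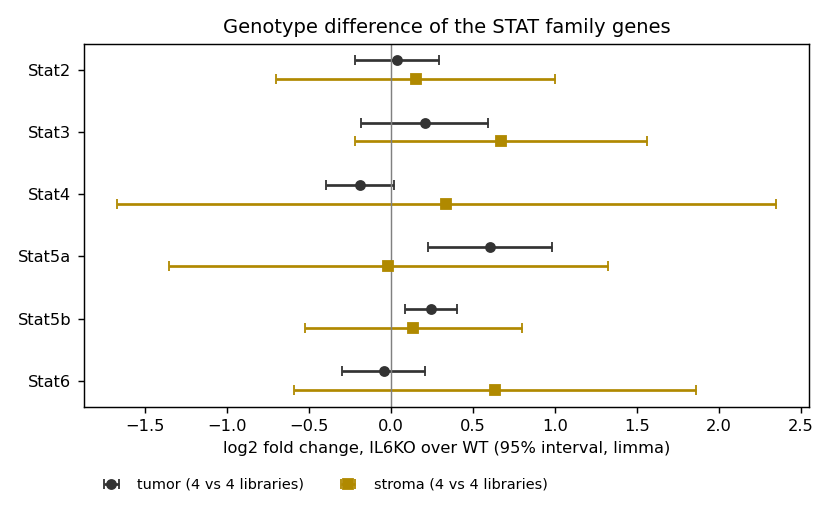
The log2 fold change of each STAT gene (horizontal axis, IL6KO over WT) with its 95% interval from limma, for tumor (circles) and stroma (squares), 4 against 4 libraries each. The tumor intervals of Stat5a (0.23 to 0.98) and Stat5b (0.09 to 0.40) lie above 0, and all stroma intervals include 0.

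Shares of the 6 genes' per-kb sum within a library need no scale between libraries, but the trend of GC content was not taken out of them. The share of Stat5a and Stat5b together was 29.0%, 24.04%, 24.1% and 22.9% in WT tumor and 33.9%, 32.4%, 26.6% and 31.3% in IL6KO tumor, so that WT tumor 1 lay above IL6KO tumor 3. Stat5a alone took 12.2% ± 2.81 in WT and 17.0% ± 2.43 in IL6KO tumor (SD, n = 4), Stat5b 12.9% ± 1.41 and 14.1% ± 1.01, and Stat4 19.7% ± 1.99 and 16.02% ± 1.54. The ratio of Stat5a to Stat5b per kb was 1.23, 0.626, 1.016 and 0.964 in WT and 1.37, 1.12, 1.07 and 1.25 in IL6KO tumor. These ratios overlapped between the genotypes, and WT tumor 2, with the lowest Stat5a, had the lowest. Among all genes of a library, Stat5a stood at the 58.1 to 70.0 percentile in WT and at the 69.8 to 76.6 percentile in IL6KO tumor. These 2 genes can be told apart by most reads: of all 75-base windows in the transcripts of Stat5a 5.12%, and of Stat5b 6.99%, were identical in both.

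**Figure D3:**
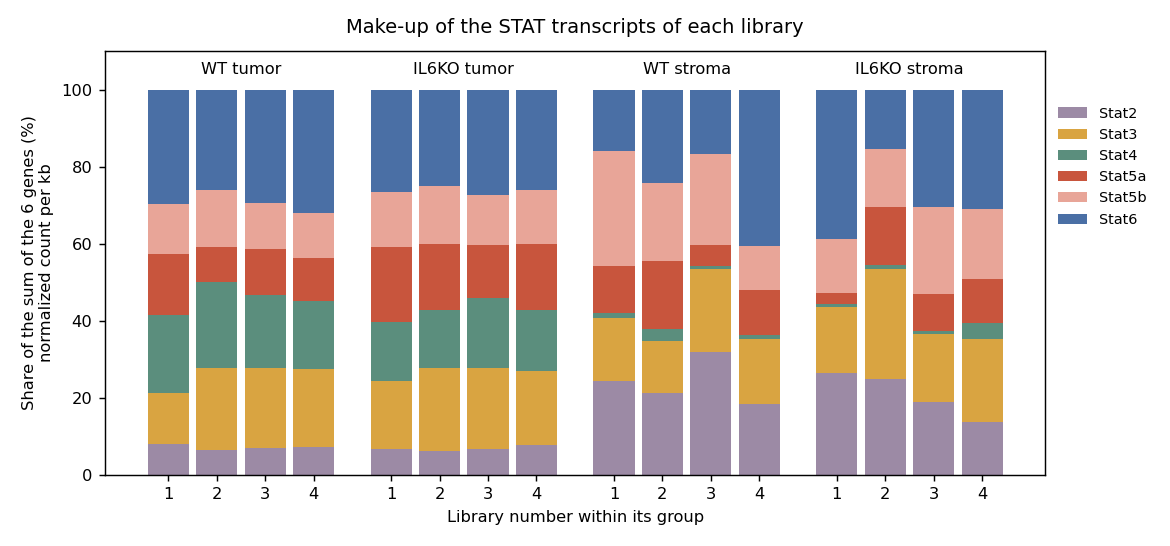
Share of each STAT gene in the sum of the 6 genes (normalized counts per kb, in %, vertical axis) in each of the 16 libraries, by group. Stat6 is the largest share in all tumor libraries (24.9% to 31.9%), and Stat4 takes 14.9% to 22.3% in tumor and 0.756% to 4.05% in stroma libraries.

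In stroma none of the 6 STAT genes passed the test, with limma adjusted p between 0.635 and 0.995 over 12202 genes. Of all genes tested 0% rose and 0.0082% (1 gene) fell, while 1117 genes had an unadjusted p under 0.05. None of the 6 had every IL6KO library above every WT library, against 2.54% of all genes. Stat3 had normalized counts of 219, 348, 402 and 605 in WT and of 585, 871, 315 and 752 in IL6KO stroma, so that 2 IL6KO libraries were above every WT library and IL6KO stroma 3 was below 3 WT libraries (log2 fold change 0.67, 95% interval -0.22 to 1.57, limma adjusted p = 0.635). Stat6 had 133, 394, 194 and 909 in WT and 819.6, 293, 336 and 673 in IL6KO stroma (log2 fold change 0.63, 95% interval -0.59 to 1.86, limma adjusted p = 0.754). Stat6 was uneven among the WT libraries, the highest of which was 6.84-fold above the lowest, and its log2 fold change was 0.020 with array weights and 0.23 to 1.15 when 1 library was left out.

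Stat2 had normalized counts of 238, 403, 429 and 483 in WT and of 651, 549.7, 242 and 348 in IL6KO stroma, with 2 libraries above and 2 within the WT range (log2 fold change 0.15, 95% interval -0.70 to 1.00, limma adjusted p = 0.935). Stat5a had 104, 292, 64.6 and 267 in WT and 61.9, 293, 108 and 257 in IL6KO stroma. Both genotypes thus held 2 high and 2 low libraries, and the log2 fold change was -0.02 with a 95% interval from -1.36 to 1.32 (limma adjusted p = 0.995), which includes the difference seen in tumor. Stat5b was the steadiest of the 6 in stroma, with 346, 453, 376 and 356 in WT and 407, 396, 347 and 546 in IL6KO (log2 fold change 0.13, 95% interval -0.53 to 0.80, limma adjusted p = 0.919). Stat4 rested on few reads, with 7.79, 40.8, 7.08 and 18.4 in WT and 13.5, 17.9, 6.59 and 69.5 in IL6KO stroma, or about 3.80 to 102 reads per library, and its log2 fold change of 0.34 had a 95% interval from -1.67 to 2.35. Whether the genotype difference of any STAT gene itself differed between tumor and stroma was not tested, and the labels do not say which tumor and stroma libraries share a mouse.

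In stroma the order of levels per kb was not settled by the libraries. Stat6 (108 ± 93.4), Stat2 (88.3 ± 23.99), Stat5b (73.4 ± 9.31), Stat3 (65.1 ± 26.6) and Stat5a (46.8 ± 29.4) overlapped from each to the next in WT (SD, n = 4). In IL6KO stroma the means were 140.5 ± 68.1 for Stat6, 104 ± 39.9 for Stat3, 102 ± 42.4 for Stat2, 81.3 ± 16.4 for Stat5b and 46.3 ± 28.9 for Stat5a, again with overlap. Stat4 (6.21 ± 5.28 in WT and 9.01 ± 9.66 in IL6KO) was the lowest of the 6 in each of the 8 stroma libraries. The highest gene of a library was Stat6 in 5 of the 8, and Stat5b, Stat2 or Stat3 in the others. Neutrophil genes summed to 8169 to 15738 normalized counts in WT and 8489 to 34335 in IL6KO stroma, and erythroid genes to 133380 to 192256 and 57859 to 244945, and the part of these cells in the spread of the STAT genes was not tested.

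Tumor and stroma were set on a common scale by the median ratio over genes found in both tables, as a description without a test. On this scale 3 of the 6 STAT genes had all 8 tumor libraries apart from all 8 stroma libraries. Stat4 was the one higher in tumor, where 21.4% of the 11812 shared genes were, by 8.66-fold in WT and 5.27-fold in IL6KO mice (ratios of means). Single stroma libraries lowered these ratios, which were 14.4-fold without WT stroma 2 and 10.996-fold without IL6KO stroma 4. Stat2 and Stat5b were higher in stroma, as were 18.4% of shared genes, Stat2 by 4.47-fold in WT and 5.08-fold in IL6KO and Stat5b by 2.103-fold and 1.97-fold. The libraries of Stat3, Stat5a and Stat6 overlapped between the compartments. The same 3 genes stood apart, in the same directions, when the libraries were scaled to 1 common sum without the 20 largest genes, although that scale moved the median of all shared genes from -0.03 to 0.15 (log2, tumor over stroma) in WT. About 905 to 2043 reads lay behind each Stat4 value in tumor. Of the 75-base windows in Stat4 transcripts, 19.5% are also in Gm28177, a noncoding gene model on the same strand that overlaps Stat4 and has no value used here, so that reads could have been split between them.

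**Figure D4:**
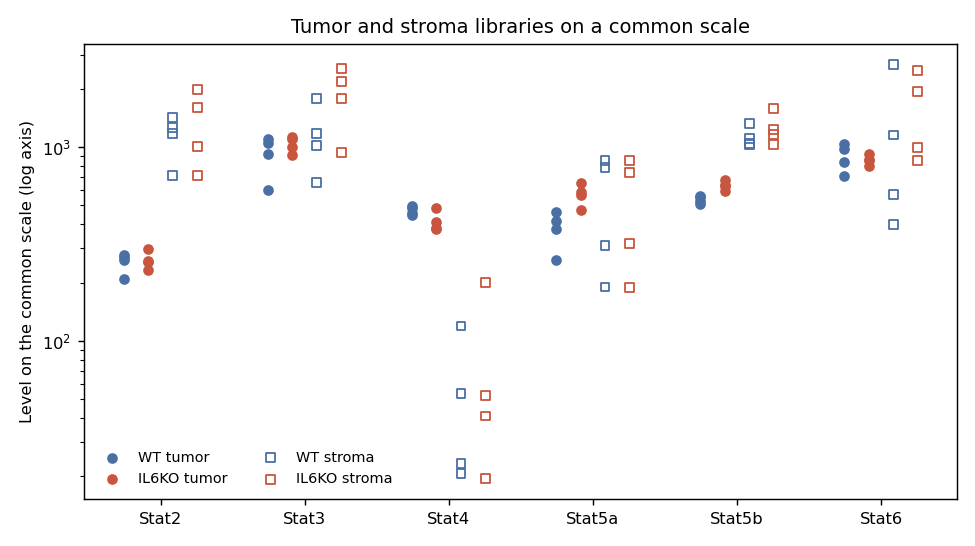
Levels of the STAT genes on the common scale (vertical log axis, no unit) in tumor (filled circles) and stroma (open squares), WT in blue and IL6KO in red, with 1 point per library. Stat4 lies between 378 and 496 in tumor and between 19.6 and 201 in stroma, and Stat2 between 209.5 and 297 in tumor and between 711 and 1975 in stroma.

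The lists of genes around the STAT factors are counted beside the 10.6% of all tested genes that rose and the 9.16% that fell in IL6KO tumor. Upstream of the STAT genes, 1 of the 4 JAK kinases rose there. Tyk2, which pairs with the receptors of interferon and IL-12, had 1206, 1176, 1222 and 1222 normalized counts in WT and 1583, 1365, 1521 and 1461 in IL6KO tumor, with no overlap (log2 fold change 0.30, SE 0.07, limma adjusted p = 0.0215). Its call was lost with the trend of GC content and length removed (log2 fold change 0.11, limma adjusted p = 0.456) and without any of 5 single libraries. Jak3, the kinase of the common gamma chain, had a log2 change of 0.33 (limma adjusted p = 0.0604), Jak1 of 0.02 and Jak2 of -0.09. In stroma no JAK kinase passed, and Jak3 had the log2 fold change with the smallest p, 1.18 (SE 0.41, limma adjusted p = 0.440).

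Of 29 receptor genes tested in tumor, 4 rose and 1 fell, where 10.6% and 9.16% of all genes did, with a median log2 fold change of -0.04 against -0.01 over all genes. Il6ra, the receptor that binds IL-6, had normalized counts of 401, 365, 481 and 474 in WT and of 666, 669, 636 and 723 in IL6KO tumor. The IL6KO libraries were all above the WT libraries, and the log2 fold change of 0.65 (SE 0.11, limma adjusted p = 0.00545) kept its call in each of 17 alternative fits, 9 with another setting and 8 without 1 library. The neutrophil and monocyte sums given above did not overlap between the genotypes in the same libraries. Of the 12 monocyte and macrophage genes, 7 had a negative log2 fold change. The part of these cell type markers in the difference of Il6ra was not tested. By flow cytometry, the paper found no IL-6R protein on the leukemia cells, in culture or in mice, and found it on many stromal cells. Il6st, the signalling subunit beside Il6ra, did not pass (log2 fold change -0.42, limma adjusted p = 0.341). Csf2rb and Csf2rb2, the beta subunits that GM-CSF, IL-3 and IL-5 use upstream of STAT5, rose by log2 fold changes of 0.63 (limma adjusted p = 0.0299) and 0.67 (limma adjusted p = 0.0195), and since they are near-identical copies their counts are uncertain. Csf2rb lost its call in 5 of 17 alternatives and Csf2rb2 in 3, and IL6KO tumor 2 was far above the rest of its group in Csf2rb (3096 against 1913 to 1985 normalized counts). Il21r rose by 0.28, and Il13ra1, a subunit for IL-4 and IL-13, fell by 1.06 on the log2 scale. In stroma no receptor passed among 25 tested.

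Among 18 inhibitors of the pathway, 3 rose and 1 fell in tumor, where 10.6% and 9.16% of all genes did, with a median log2 fold change of 0.05. Ptpn11, the phosphatase SHP2, had 5672, 4759, 5257 and 5705 normalized counts in WT and 7115, 6551, 7153 and 7022 in IL6KO tumor, with a log2 change of 0.38 (SE 0.07, limma adjusted p = 0.00785) that held in all 17 alternatives. Socs2, an inhibitor that STAT5 is known to induce, had 3022, 2665, 2466 and 2871 in WT and 3818, 4486, 3279 and 3473 in IL6KO tumor. Its groups did not overlap (log2 fold change 0.44, SE 0.11, limma adjusted p = 0.0192), and 15 of 17 alternatives kept the call. Ptpn1 rose by 0.29, and Usp18, a brake on interferon signalling, fell by 0.81 on the log2 scale (limma adjusted p = 0.0343, lost in 9 of 17 alternatives). In stroma none of 16 inhibitors passed. Socs6 had the smallest p, with 12.7, 29.97, 10.01 and 11.4 normalized counts in WT and 209.9, 79.96, 149 and 50.8 in IL6KO stroma (log2 fold change 2.79, SE 0.65, limma adjusted p = 0.302).

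Of 7 partners and coactivators, 1 rose and 3 fell in tumor. The histone acetyltransferases Ep300 and Crebbp fell by 0.83 (limma adjusted p = 0.0193) and 0.30 (limma adjusted p = 0.0268) on the log2 scale, and the coactivator Ncoa3 fell by 0.30 (limma adjusted p = 0.0413). Of 17 alternatives, 8 ended the call of Ncoa3, 7 of them by leaving out 1 library, 5 that of Crebbp and 3 that of Ep300. Smarca4, the ATPase of SWI/SNF remodelling complexes, rose by a log2 change of 0.34 (limma adjusted p = 0.00651). With the trend of GC content and length removed, none of the 7 rose and 1 fell. Irf9, the DNA-binding partner of STAT2, had a log2 change of -0.36 in tumor (limma adjusted p = 0.254) and of -0.83 in stroma (limma adjusted p = 0.516), where its 4 IL6KO libraries (177, 216, 365 and 373) were below its 4 WT libraries (457, 422, 435 and 617). In tumor the values of Ncoa1 and Nmi, log2 fold changes of -0.33 and 0.07, did not pass.

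Genes known as targets of each STAT were counted in tumor from lists that overlap in part and were drawn up with earlier results in view. The list of STAT3 targets had 9 genes that rose and none that fell among 23 tested (median log2 fold change 0.41), or 8 and 2 with the trend of GC content and length removed. Of the 9, Lcn2 and S100a9 are also on the neutrophil list, and Hp and Lrg1, with log2 fold changes of 2.06 (limma adjusted p = 0.00585) and 2.18 (limma adjusted p = 0.00732), encode secreted proteins that neutrophils are known to store as well. The list of STAT5 targets had 3 genes that rose and none that fell among 20 (median 0.19), where 10.6% of all genes rose: Socs2, the kinase Pim1 (log2 fold change 0.53, limma adjusted p = 0.0252, lost in 7 of 17 alternatives) and Lrrc32 (0.57, limma adjusted p = 0.0270, lost in 5 of 17). With the trend of GC content and length removed, 2 STAT5 targets rose and 2 fell. Cish, another target of STAT5, had a log2 change of -0.63 that did not pass (limma adjusted p = 0.243).

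The interferon targets of STAT2 went the other way, with 7 of 19 genes lower in IL6KO tumor and none higher (median log2 fold change -0.53). Rtp4 had 223, 182, 345 and 187 normalized counts in WT and 95.1, 67.4, 58.98 and 90.03 in IL6KO tumor, and fell by 1.55 on the log2 scale (SE 0.24, limma adjusted p = 0.00379). Irf7, a factor of the interferon response, had 111, 167, 206 and 163 in WT and 88.0, 78.5, 77.4 and 88.1 in IL6KO tumor, and fell by 0.92 (SE 0.20, limma adjusted p = 0.0128). Both calls held in all 17 alternatives, while the number of genes on the list that fell was 5 with the trend of GC content and length removed and 2 with quantile normalization. Of STAT6 targets 1 of 7 rose, Chil3, a lectin of myeloid cells, with a log2 change of 1.83 (limma adjusted p = 0.00421), and of 4 STAT4 targets none passed. Neutrophil markers rose in the same libraries, and their part in the rise of Chil3 was not tested. In stroma no target of any STAT passed. Of the STAT3 targets there, 19 of 24 had a positive log2 fold change (median 0.48), where 49.4% of all genes tested in stroma did (median -0.01). Mcl1, which protects cells from apoptosis, and the protease Mmp9 had log2 fold changes of 1.31 (limma adjusted p = 0.324) and 1.25 (limma adjusted p = 0.364) with every IL6KO library above every WT library, and Socs3, an inhibitor of IL-6 signalling, had 2.24 (limma adjusted p = 0.432) with overlap. Mmp9 is also on the neutrophil list, of which 12 of 14 genes had a positive log2 fold change in stroma and none passed. Of the interferon targets, 16 of 19 had a negative log2 fold change (median -0.77), where 49.4% of all genes tested had a positive one. Ifit1 was among the 16, with 95.7, 101.2, 147 and 137 in WT and 8.24, 12.8, 37.2 and 31.8 in IL6KO stroma (log2 fold change -2.57, limma adjusted p = 0.302). The value of 1 read was about 1.14 to 3.41 in the IL6KO stroma libraries, so that these IL6KO values of Ifit1 rest on few reads.

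**Figure D5:**
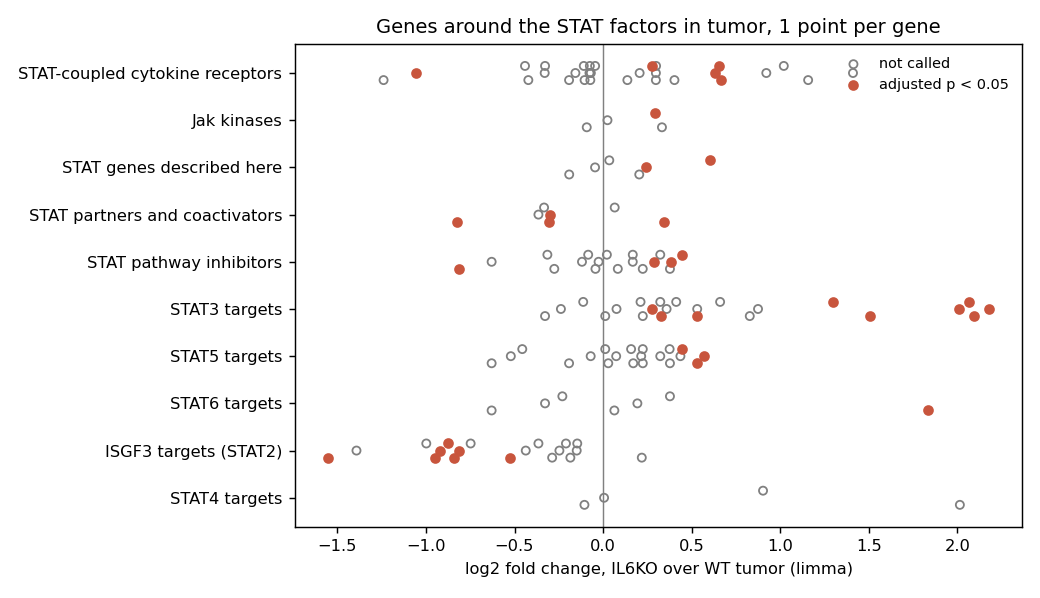
The log2 fold change in tumor (horizontal axis, IL6KO over WT, limma) of the 6 STAT genes and of each gene tested on the lists around them, 1 point per gene, filled where the adjusted p was under 0.05. Of STAT3 targets 9 of 23 are filled on the right, and of interferon (ISGF3) targets of STAT2 7 of 19 are filled on the left.

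For each STAT gene, the protein-coding genes whose log2 level was most like it over the 8 tumor libraries were picked among 10204 genes, as a description. Both genotypes are among these libraries, so a shared genotype difference enters the likeness. The highest r among so many genes over 8 libraries can be large without any link between the genes, and no link was tested. The picked genes were Bola1, Enkd1 and Ctdsp2 for Stat5a (Pearson r 0.990, 0.980 and 0.976) and Dtd2, Ipo4 and Wdr4 for Stat5b (0.984, 0.984 and 0.982). For Stat3 they were Ccnk, Adat1 and Bcdin3d (r 0.964, 0.958 and 0.940), for Stat4 Zfp62, Osgin2 and Marc2 (0.974, 0.966 and 0.960), for Stat2 Gpr152, Exoc7 and Ints12 (0.924, 0.924 and 0.915) and for Stat6 Agk, Adgra2 and Znrf3 (0.939, 0.925 and 0.913). Stat5a and Stat5b shared none of these genes and had r = 0.622 with each other. In stroma, among 7598 genes (7599 for Stat4), the nearest were Tbc1d14 for Stat3, Kmt5a for Stat2, Fbxo38 for Stat4, Chmp5 for Stat5a, Kbtbd7 for Stat5b and Arf1 for Stat6, with r between 0.951 and 0.984.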

How the data were processed

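mCherry+ and mCherry- marrow cells of WT and IL6KO mice were profiled by RNA-sequencing (rRNA depletion, stranded kit, single-end reads of 75 nt). Per the labels and the paper, the authors quantified reads with Salmon 1.3.0 on mm10, correcting for GC and sequence bias, and normalized with DESeq2 1.28.1. The authors deposited 1 table of normalized counts per compartment, a scaled signal and not whole reads. Their tables of fold changes and p-values were not used.

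Groups and library numbers were read from the sample titles. The labels do not tie libraries to mice, so p-values measure the spread between these libraries, which may be partly technical. Log2(normalized count + 1) was tested with limma 3.58.1 (R 4.3.3; lmFit, eBayes with trend, two-sided, Benjamini-Hochberg) on genes with a mean over 10, separately per table, with genotype as the only term and a threshold of 0.05. Such fold changes understate the change of low genes. Gene models came from GENCODE vM21. Depth is the sum of a library over its value of 1 read. Whole reads could not be recovered for most genes, so no count model was run. Steps were tested on simulated data. The labels do not say whether libraries of the same number belong together, so the numbers were not used as pairs in the main fits. Deviations from the group mean of same-numbered WT and IL6KO libraries in a table had correlations of -0.03 to 0.13, which cannot settle whether they share a day.

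Named genes were the 6 STAT genes, up to 3 genes per list and compartment with the smallest adjusted p (all tested genes of lists under 8), and the 3 genes most like each STAT gene. Cish, Il6st, Il21r, Il13ra1, Ptpn1, S100a9 and Gm28177 were named after their values were seen, and 1 gene that the rule names is not reported here. The STAT genes and all lists were chosen with earlier results of these data known, so that no list count is independent evidence. Python 3.11.15, pandas 2.3.3 and matplotlib 3.10.9 were used.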

Additional observations from a re-analysis of the deposited data

Results flagged for a closer look

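Of 138 groups of 4 libraries examined (the 6 STAT genes and the pathway genes named by rule), 7 held a library far from the other 3, and chance gives about 1 in 20. None was a STAT gene. In IL6KO stroma, Ncoa1 was at 486 normalized counts in library 3 (others 118 to 166). In WT stroma, Il2rg was at 73.1 in library 3 (others 41.8 to 47.1), Ncoa3 at 624 in library 4 (others 103.4 to 155), Socs6 at 29.97 in library 2 (others 10.01 to 12.7), Tgm2 at 238 in library 1 (others 121 to 122), and Tyk2 at 205 in library 1 (others 299.98 to 300.2). In IL6KO tumor, Csf2rb was at 3096 in library 2 (others 1913 to 1985).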

How the results depend on the processing

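The number of STAT genes called in tumor, 2 as reported, was also 2 with pseudocounts of 0.5 and 5, without a filter or with a mean over 50, with median centring and with array weights. It was 1 with quantile normalization (Stat5a), 0 with the trend of GC content and length removed, and 1 with the replicate block (Stat5a, while Stat5b had a limma adjusted p of 0.0677), where the labels do not say that shared numbers pair the samples. Leaving out 1 library at a time gave 0 to 2. The cause was not tested. The number in stroma was 0 in every fit, and the number of STAT genes apart between tumor and stroma was 3 on the other scale. It was also 3 without each of the 16 libraries, an alternative chosen after seeing the data. Leaving out a library cannot bring separate ranges into overlap, so this alternative could not have lowered the number. With the block, 2 receptors rose and 3 interferon targets fell in tumor.

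The fold changes that turned were those of genes without a call in that compartment, and all are given as log2 fold changes. With array weights in stroma, that of Stat4 was -0.061 and that of Stat5a 0.017. With quantile normalization in tumor, that of Jak1 was -0.039, and with the trend removed, that of Jak2 was 0.11. Leaving out 1 library at a time in tumor gave -0.058 to 0.084 for Stat2, -0.15 to 0.033 for Stat6 and -0.0026 to 0.047 for Jak1. In stroma it gave -0.069 to 0.41 for Stat2, -0.28 to 0.82 for Stat4, -0.42 to 0.40 for Stat5a, -0.42 to 0.25 for Crebbp, -0.59 to 0.092 for Ncoa1, -0.44 to 0.59 for Ncoa3, -2.22 to 0.051 for Nmi and -0.13 to 0.022 for Smarca4. With the mean transcript length, 8 of 12 shares of a STAT gene moved by more than 1 SD in tumor and 2 of 12 in stroma. About 3.80 reads lay behind the lowest Stat4 value in stroma, so that depth limits Stat4 there.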
